A study of Mus musculus with 6 samples.

Results

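The first 48 h of HOXA9 OFF were examined as a comparison of 2 single-cell libraries, HOXA9 OFF 0 h and HOXA9 OFF 48 h. Of the 5872 cells that passed the filter in the 6 libraries of the series, 1877 belonged to this pair, 473 at 0 h and 1404 at 48 h. A cell was kept when its barcode held 200 to 6000 detected genes and at most 10% of its unique molecular identifiers (UMIs, each marking 1 captured mRNA molecule) came from mitochondrial genes. All cells came from cultures of granulocyte-monocyte progenitors of C57BI/6 mouse bone marrow, immortalised by HOXA9 fused to the ligand-binding domain of a mutant estrogen receptor. These iGMPs are labelled Lys-GFP-ER-HoxA9, since they also carry a GFP reporter of lysozyme expression. At 0 h the HOXA9 OFF culture was held in 150 ng/ml estradiol, and at 48 h it had been washed and grown without estradiol (0 ng/ml). Stem cell factor was present throughout, and no IPTG was added. The arm used iGMPs cloned with a control vector in place of a hairpin, so it follows cultured clonal cells and not animals. In the second arm, CAF-1 OFF, estradiol stayed at 150 ng/ml and 500 µM IPTG induced a hairpin against the CAF-1 subunit Chaf1b. Live cells were sorted before capture on the 10x Chromium, and molecules were counted from their 3′ ends. Each time point was 1 library, so no test between time points was possible and no p-value is given.

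HOXA9 is a homeobox transcription factor that keeps myeloid progenitors dividing, and its excess is a common feature of acute myeloid leukemia. Granulocytes are built in order: promyelocytes pack primary granules with Mpo and elastase, later precursors pack secondary and tertiary granules with Camp, Ngp and Ltf, and mature neutrophils carry the receptors and the NADPH oxidase used against microbes. Eosinophils branch from the same progenitors and fill their granules with major basic protein, the product of Prg2.

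The kept cells held 4190199 UMIs at 0 h and 5310431 at 48 h. The mean UMIs per cell were 8859 and 3782, 2.34-fold lower at 48 h, and cells had a median of 2487 and 1250 genes. The mitochondrial limit removed 927 of 1400 barcodes (66.2%) at 0 h and 193 of 1597 (12.1%) at 48 h. Removed barcodes held a median of 717 and 776 UMIs, and with no such limit 621 genes rose and 912 fell. Scrublet, a doublet caller, marked 24 cells (5.07%) at 0 h and 4 (0.285%) at 48 h, and these were kept. The 2 libraries shared 4 barcode sequences. At 48 h, 3 UMIs in the library correspond to 0.565 CPM (counts per 1000000 UMIs), and at 0 h to 0.716 CPM.

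Values below are CPM of each library's summed UMIs. A gene was said to have risen or fallen when log2((CPM at 48 h + 10)/(CPM at 0 h + 10)) was at least 1 or at most −1, a 2-fold change on that scale. Genes were measured, 4789 in all, when their CPM averaged 20 or more across the 6 libraries. A gene under 20 CPM in both 0 h libraries could enter only by being higher elsewhere, so where many members of a list were such genes, the number that rose was largely set by this minimum and supports nothing, and the other members are counted apart. Ranges in parentheses after a fold are exact 95% intervals, after CPM exact Poisson intervals, and after a share of cells exact Clopper-Pearson intervals. All cover counting error alone, and say nothing of the spread between cultures. A summed CPM cannot tell a change in the number of cells of a type from a change in mRNA per cell, and it is relative to a total that fell in each cell.

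Within 48 h, 621 genes rose (13% of those measured) and 940 fell (19.6%), 32.6% together. Counts of list members below are to be read beside these shares. For comparison, the 0 h libraries of the HOXA9 OFF and CAF-1 OFF arms, both held in estradiol, differed by at least 2-fold at 43 genes (0.898%). These are different clones and not replicates. Genes near 0 CPM in both cannot differ 2-fold with the pseudocount, which keeps that share low. The share is thus no measure of the spread between cultures. How far rises and falls reached is partly set by the method, so their largest sizes are not compared. A gene with few UMIs at 0 h could be measured only by being higher elsewhere. The pseudocount limits the size of a fall by the 0 h level. At least 4-fold, 204 genes rose and 152 fell. At least 16-fold, 28 rose and 4 fell, and at least 32-fold, 11 rose and 0 fell. The median log2 ratio of all measured genes was −0.23. The balance of calls depended on scaling: 39.8% of calls were rises on CPM, 54.7% with TMM factors (791 up, 654 down) and 54.1% with median-of-ratios factors (781 up, 663 down). These factors put the median over all genes 0.25 and 0.24 higher on the log2 scale. Of the genes that rose, 31 had 0 UMIs at 0 h and 52 had at most 3, so their sizes rest on the pseudocount.

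**Figure D1:**
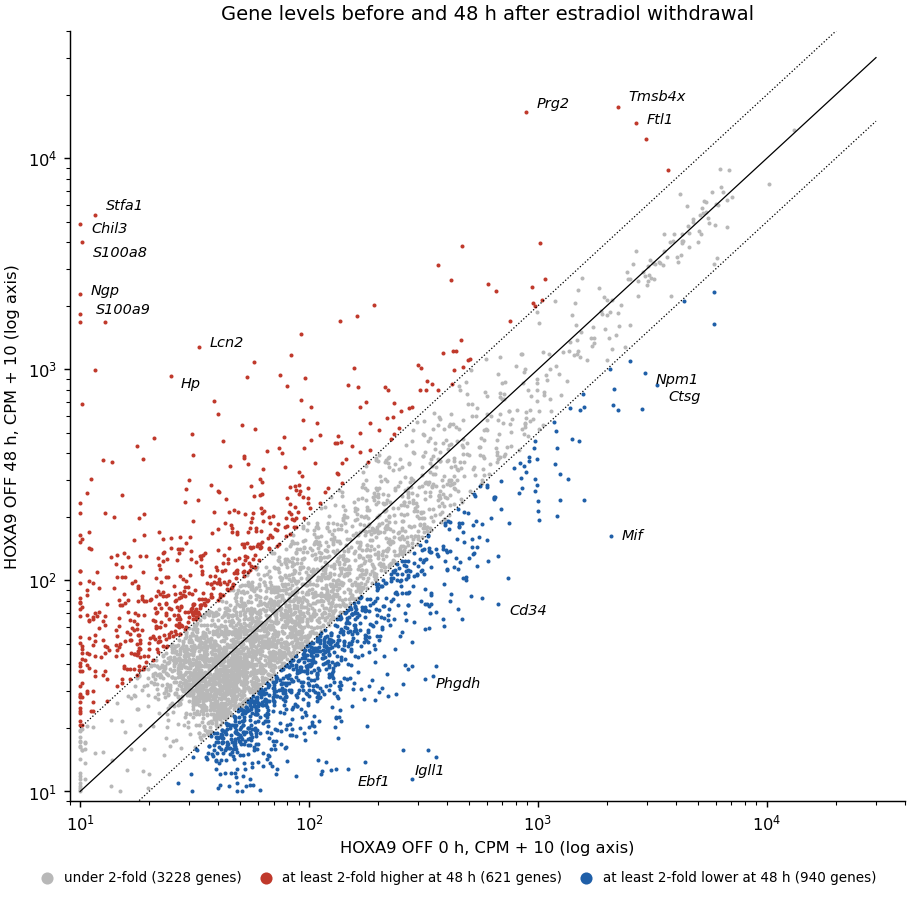
Level of each of the 4789 measured genes at 0 h (x axis) and 48 h (y axis), in CPM + 10 on log axes. The solid line marks equal levels and the dotted lines a 2-fold change. Genes that rose (red, 621) include those at the left edge, with 0 to few UMIs at 0 h and up to 5353 CPM at 48 h. Those that fell (blue, 940) lie closer to the line. Genes at the left edge were measured only because they were higher elsewhere, so this difference in reach is partly set by the minimum level.

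The fusion itself acts at the protein level, so its loss cannot be read from mRNA. The Hoxa9 transcript, which can include that of the fusion, rose from 97 UMIs at 0 h (23.1 CPM, 18.8 to 28.2) to 382 UMIs at 48 h (71.9 CPM, 64.9 to 79.5). In bulk RNA-seq of these conditions, the paper found no reads over the untranslated ends of Hoxa9. It takes this to mean that the fusion transgene was expressed and the endogenous gene was not. Lysozyme, whose expression the reporter follows, was counted at 0 UMIs of Lyz2 at 0 h and 1 UMI at 48 h. Its close copy Lyz1 went from 0 UMIs to 44.1 CPM (38.6 to 50.1). The division of lysozyme reads between these near-identical genes is uncertain. The source that the paper cites for the reporter describes GFP inserted into the lysozyme gene, and the part of that insertion in these counts was not tested.

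The 15 largest rises, chosen by a fixed rule among genes that reached 50 CPM in 1 library and differed under 2-fold between the 0 h libraries of the arms, had 0 to 23.1 CPM at 0 h and 291 to 5353 CPM at 48 h. Most of them encode proteins of granulocyte granules or cytosol. Chil3, a chitinase-like protein of neutrophil precursors and macrophages, went from 0 UMIs at 0 h to 4897 CPM at 48 h, at least 6839-fold higher. S100a8, one chain of the antimicrobial protein calprotectin, went from 1 UMI at 0 h to 4001 CPM at 48 h, a ratio of 16765 (3009 to 662211). S100a9, its partner chain, went from 0 UMIs at 0 h to 1815 CPM at 48 h, at least 2536-fold higher. Calprotectin is the main cytosolic protein of neutrophils, and neither chain was above 1 UMI at 0 h.

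Ngp, neutrophilic granule protein, went from 0 UMIs at 0 h to 2275 CPM at 48 h, at least 3178-fold higher. Camp, the cathelicidin of secondary granules, went from 1 UMI at 0 h to 675 CPM at 48 h, a ratio of 2829 (507 to 111760). Across 473 cells in estradiol these genes had 0 and 1 UMI. Lcn2, which binds bacterial siderophores, started higher and rose from 23.1 to 1269 CPM, 54.8-fold (44.9 to 67.7). Hp, haptoglobin of secondary granules, rose from 15.04 to 924 CPM, 61.5-fold (47.96 to 80.1). For these genes the ratio rests on counts at both times.

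Stfa1, an intracellular inhibitor of cysteine cathepsins, rose from 1.67 to 5353 CPM, 3204-fold (1555 to 7970.1). Its neighbour Gm5483, also of the stefin A family, went from 0 UMIs at 0 h to 1676 CPM at 48 h, at least 2340.3-fold higher. BC100530, a further member, rose from 2.86 to 1673 CPM, 584-fold (334 to 1131). Of 9 stefin A genes measured, 7 were given a position, within 299 kb of chromosome 16 (chr16:36156811-36455392, GRCm38), and the genes are near copies, so the split of UMIs among them is uncertain. All 9 were under 20 CPM in both 0 h libraries, 7 of them at 0 UMIs at HOXA9 OFF 0 h, and 8 rose. Summed over the family, which the split does not touch, the level went from 4.53 to 9173 CPM.

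Clec4a2, a C-type lectin receptor of myeloid cells, rose from 1.67 to 983 CPM, 588-fold (285 to 1464). Mgst1, a microsomal glutathione transferase, rose from 2.63 to 360.4 CPM, 137-fold (76.6 to 275). Lsp1, an actin-binding protein of leukocytes, rose from 1.19 to 291 CPM, 244-fold (104 to 753). Igsf6, an immunoglobulin-family receptor of myeloid cells, rose from 7.64 to 422 CPM, 55.3-fold (39.1 to 81.1). Fcnb, ficolin B of the lectin complement pathway and a promyelocyte product, rose from 3.82 to 354 CPM, 92.7-fold (56.9 to 163). At 96 h Fcnb stood lower, at 114 CPM, whereas Chil3, Stfa1 and S100a8 stood at 8446, 21162 and 65259.5 CPM, above their 48 h levels.

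The promoters of a few of these genes are printed because the members of a granule class rose together while ribosome biogenesis genes fell together. Each is the 250 bases before the annotated start in RefSeq (GRCm38.p6), written 5′ to 3′ on the gene's strand. Capitals mark every match, on either strand, to TTGCNNAA (C/EBP type), GAGGAAG (PU.1 type), CACGTG (E-box of the MYC/MAX type), TTTNNCGC (E2F type) or TGATTNAT (HOX/MEIS type). No 2 matches overlapped in those shown. The first 4 belong to genes that rose and the last 2 to genes that fell: Ngp at chr9:110419558-110419807 (+), S100a8 at chr3:90668821-90669070 (+), Stfa1 at chr16:36276898-36277147 (+), Elane at chr10:79886062-79886311 (+), Ncl at chr1:86359456-86359705 (−) and Nop56 at chr2:130274162-130274411 (+).
Ngp: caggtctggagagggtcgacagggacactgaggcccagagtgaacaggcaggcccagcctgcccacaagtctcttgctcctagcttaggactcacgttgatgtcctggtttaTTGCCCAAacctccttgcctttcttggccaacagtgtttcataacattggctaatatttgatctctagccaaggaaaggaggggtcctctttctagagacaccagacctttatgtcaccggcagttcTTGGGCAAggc
S100a8: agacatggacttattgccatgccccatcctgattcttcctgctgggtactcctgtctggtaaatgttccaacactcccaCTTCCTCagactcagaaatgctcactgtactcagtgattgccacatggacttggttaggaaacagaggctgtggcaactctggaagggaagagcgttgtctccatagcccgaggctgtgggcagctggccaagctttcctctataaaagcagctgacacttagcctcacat
Stfa1: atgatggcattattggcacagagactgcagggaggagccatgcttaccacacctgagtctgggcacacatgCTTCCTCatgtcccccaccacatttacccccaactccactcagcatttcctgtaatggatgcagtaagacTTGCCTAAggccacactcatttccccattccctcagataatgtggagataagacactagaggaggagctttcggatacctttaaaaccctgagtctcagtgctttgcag
Elane: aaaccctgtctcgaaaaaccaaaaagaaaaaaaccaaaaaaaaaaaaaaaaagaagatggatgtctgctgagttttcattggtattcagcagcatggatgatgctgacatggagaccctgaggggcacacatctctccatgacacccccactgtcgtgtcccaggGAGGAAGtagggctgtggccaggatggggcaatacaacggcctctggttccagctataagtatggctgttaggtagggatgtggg
Ncl: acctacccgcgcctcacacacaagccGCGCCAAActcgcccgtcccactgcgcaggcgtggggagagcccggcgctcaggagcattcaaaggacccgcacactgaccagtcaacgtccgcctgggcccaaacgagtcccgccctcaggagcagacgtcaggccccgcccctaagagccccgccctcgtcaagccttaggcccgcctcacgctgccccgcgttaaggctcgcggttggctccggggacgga
Nop56: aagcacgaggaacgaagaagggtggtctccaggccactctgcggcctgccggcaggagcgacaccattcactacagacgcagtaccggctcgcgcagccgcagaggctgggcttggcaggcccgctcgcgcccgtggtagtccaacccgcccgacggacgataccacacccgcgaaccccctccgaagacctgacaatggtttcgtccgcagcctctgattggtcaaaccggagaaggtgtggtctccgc

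The Ngp window held 2 matches to TTGCNNAA, 138 and 11 bases before the start at their first base. The Stfa1 window held 1, 109 bases before it, and 1 match to GAGGAAG on the other strand. S100a8 and Elane each held 1 match to GAGGAAG, and none of the letters searched for were in the Nop56 window. Ncl held 1 match to TTTNNCGC, 224 bases before its start. The 4 printed promoters of genes that rose held 1 to 3 CG dinucleotides, and those of Ncl and Nop56 held 27 and 25, against a median of 6 per window over all 32851 RefSeq windows and 16 over windows of measured genes. The window of Cd34, which fell and is not printed, held 6 CG and no match, so falls did not share a high CG count. That of Chil3, which rose and is not printed, held 3 CG and 1 match to TGATTNAT, 203 bases before its start.

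Over the secondary and tertiary granule list, 13 of 15 genes had a window, and 6 of 13 windows (46.2%) held TTGCNNAA, against 9.56% of all promoters and 8.16% of those of measured genes. GAGGAAG was in 4 of them (30.8%), and in 4 of 11 primary granule windows (36.4%), against 10.6% and 11.6%. Of 35 DNA replication windows, 7 (20%) held TTTNNCGC, against 4.28% and 8.10%. CACGTG was in 7 of 22 lysosome windows (31.8%) and 1 of 25 nucleolar windows (4%), against 6.02% and 9.17%. Among the genes that fell, 82.8% had a window, and 11.2% of windows held CACGTG and 10.4% TTTNNCGC. Among those that rose, a smaller part, 77.5%, had one, and no share of windows is given for them. The granule lists can thus not be set beside all genes that rose. Windows were found for 9 of 10 primary granule, 27 of 31 DNA replication, 19 of 22 lysosome and 22 of 26 nucleolar genes, and a gene with several annotated starts has several. A match is a string of letters, not a measured binding site.

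Of the 15 largest falls, Cd34, Sox4 and Hlf are known from stem and progenitor cells. Cd34, the sialomucin that marks progenitors, fell from 660.1 to 67.2 CPM, 9.82-fold (8.79 to 10.99). Sox4, a transcription factor of early progenitors, fell from 138 to 2.82 CPM, 48.9-fold (29.4 to 88.0). Hlf, a transcription factor of stem cells, fell from 114 to 2.64 CPM, 43.4-fold (25.6 to 79.9). Igll1 and Ebf1, the surrogate light chain and a transcription factor of early B cells, fell from 350.1 to 4.52 CPM, 77.5-fold (51.9 to 121), and from 272 to 1.51 CPM, 181-fold (91.4 to 419.7). These lymphoid genes were well counted at 0 h and at 24 and 8 UMIs at 48 h. On the lymphoid list, where Ebf1 and Cd79b were measured, Cd79b was at 45.8 and 62.7 CPM, 1.37-fold (1.14 to 1.64).

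Mif, a cytokine-like tautomerase, was the most abundant of the named falls and went from 2079 to 152 CPM, 13.7-fold (12.7 to 14.7). Phgdh, which starts serine synthesis, fell from 312 to 24.1 CPM, 12.9-fold (10.8 to 15.6). Srm, the spermidine synthase, fell from 348 to 29.2 CPM, 11.9-fold (10.1 to 14.2). Chchd10, a mitochondrial protein, fell from 339 to 25.4 CPM, 13.3-fold (11.2 to 16.01). The remaining falls were Nrgn, a calmodulin-binding protein (from 322 to 5.65 CPM), Ctla2a, a cathepsin inhibitor (from 247 to 5.65 CPM), Sdc1, the proteoglycan syndecan (from 166 to 3.77 CPM), Ppp1r14c, a phosphatase inhibitor (from 102.4 to 2.07 CPM), Rangrf, a Ran-binding factor (from 169 to 10.4 CPM), and 2310075C17Rik (from 122 to 2.82 CPM). All 15 ended at 152 CPM or less.

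Progenitor genes fell as a list, 10 of 14 measured against 19.6% of all genes, with 1 that rose and a median log2 ratio of −2.09. Flt3, the FLT3 ligand receptor, fell from 77.3 to 1.88 CPM, 41.1-fold (22.0 to 86.4). Kit, the stem cell factor receptor, fell from 80.9 to 9.98 CPM, 8.11-fold (6.05 to 11.04) with the factor in the medium. Meis1, a HOXA9 partner, fell from 50.1 to 3.77 CPM, 13.3-fold (8.40 to 22.2). Myc fell from 94.7 to 10.4 CPM, 9.15-fold (6.89 to 12.4). Myb, needed for progenitor growth, kept more of its level and fell from 261 to 93.6 CPM, 2.78-fold (2.50 to 3.102). Runx1 alone went the other way, from 13.4 to 45.0 CPM, 3.37-fold (2.51 to 4.59). It was under 20 CPM in both 0 h libraries, and none of the other 13 rose. Gata2 and Lmo2 changed less than 2-fold, at log2 ratios of −0.43 and −0.34. Checked against markers of progenitors, the 0 h library thus held Cd34, Kit and Flt3 at 660.1, 80.9 and 77.3 CPM.

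Primary granule genes went in both directions. Of 10 measured, 4 rose and 2 fell, against 13% and 19.6% of all genes, with a median of 0.45. The share that fell is near that of all genes. Of these 10, 1 was under 20 CPM in both 0 h libraries and rose. Of the other 9, 3 rose and 2 fell. Elane, neutrophil elastase, rose from 48.2 to 512 CPM, 10.6-fold (9.20 to 12.3), and was at 129 CPM in CAF-1 OFF at 0 h. Ms4a3, a membrane protein of granulocyte progenitors, rose from 64.9 to 934 CPM, 14.4-fold (12.7 to 16.3). Plac8 rose from 3697 to 8796 CPM, 2.38-fold (2.34 to 2.42). In contrast Ctsg, cathepsin G, fell from 3309 to 833 CPM, 3.97-fold (3.84 to 4.11), and Cst7, a cystatin, fell from 308 to 130.3 CPM, 2.36-fold (2.15 to 2.59). Mpo, myeloperoxidase, was at 978 and 890.3 CPM, and Prtn3, proteinase 3, at 1181 and 2088 CPM, both under the 2-fold limit. The proteases Elane and Ctsg, both stored in primary granules, stood at 48.2 against 3309 CPM at 0 h and 512 against 833 CPM at 48 h. These are counts of 3′ ends, which do not scale with transcript length.

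Of 15 secondary and tertiary granule genes measured, 13 rose and none fell. Of these 15, 11 were under 20 CPM in both 0 h libraries, and the other 4 all rose. Besides the largest rises, Slpi, a protease inhibitor, rose from 152 to 1786 CPM, 11.8-fold (10.9 to 12.8), and Pglyrp1, a peptidoglycan binder, rose from 73.5 to 1156 CPM, 15.7-fold (14.02 to 17.7). Ltf, lactoferrin, went from 0 UMIs at 0 h to 143 CPM at 48 h, at least 199.6-fold higher. The collagenase Mmp8 and the gelatinase Mmp9 had log2 ratios of 3.18 and 2.04, but the 0 h libraries differed in Mmp8, at 4.53 CPM here against 24.2 CPM for CAF-1 OFF. Chil1 and Itgb2l stayed just under the limit, at 0.95 and 0.96.

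Genes of mature neutrophils were mixed. Of 16 measured, 9 rose and 1 fell. Of these 16, 13 were under 20 CPM in both 0 h libraries, and of the other 3, 2 rose and 1 fell. Itgam, the integrin chain CD11b, rose from 1.19 to 130.5 CPM, 109-fold (46.6 to 338). Csf3r, the G-CSF receptor, rose from 5.97 to 47.1 CPM, 7.89-fold (5.22 to 12.4). Msrb1, a selenoprotein, rose from 407 to 2646 CPM, 6.51-fold (6.19 to 6.85). Clec4d, a lectin receptor, fell from 74.5 to 12.1 CPM, 6.18-fold (4.71 to 8.22). Markers of the last steps stayed low. Ly6g went from 0 UMIs to 7.34 CPM, and the log2 ratios of Cxcr2, Retnlg and Il1b were 0.93, 0.52 and 0.14.

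The NADPH oxidase, which makes superoxide in phagocytes, is assembled from a membrane pair and cytosolic subunits. Of 9 measured genes 7 rose and none fell, with 2 of the 9 under 20 CPM in both 0 h libraries and 5 of the other 7 among those that rose. Of the membrane pair, Cybb went from 0 UMIs at 0 h to 199 CPM at 48 h, at least 278-fold higher, while Cyba was already present and rose from 645 to 2336 CPM, 3.62-fold (3.47 to 3.78). The cytosolic subunits Ncf1 and Ncf4 had log2 ratios of 2.23 and 1.79, and the proton channel Hvcn1 2.12. Pentose phosphate enzymes, which supply NADPH, rose at 4 of 9 measured genes with none that fell, among them G6pdx (from 18.4 to 78.9 CPM) and Pgd (from 192 to 507 CPM). G6pdx was under 20 CPM in both 0 h libraries, and of the other 8, 3 rose and none fell. The list's median was 0.72.

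Receptor genes moved in both directions. Among cytokine and growth factor receptors 6 of 13 measured rose and 2 fell, the latter being Flt3 and Kit. All genes gave 13% and 19.6%. Of these 13, 3 were under 20 CPM in both 0 h libraries and 2 of them rose. Of the other 10, 4 rose and 2 fell. Csf2ra, a chain of the GM-CSF receptor, rose from 15.04 to 133 CPM, 8.82-fold (6.81 to 11.6), and Tnfrsf1a, a TNF receptor, rose from 24.3 to 123 CPM, 5.04-fold (4.08 to 6.27). Among chemokine receptors and adhesion molecules 8 of 17 rose and 1 fell, but 10 were under 20 CPM in both 0 h libraries, and of the other 7, 1 rose and 1 fell. Itgb2, the beta chain shared by leukocyte integrins, rose from 9.07 to 196 CPM, 21.6-fold (15.6 to 30.7). Ccr1, C5ar1 and Cxcr4 had log2 ratios of 2.93, 2.00 and 1.70. Ccr2, a chemokine receptor of monocytes and their precursors, fell from 348 to 60.6 CPM, 5.73-fold (5.08 to 6.49).

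Of 12 measured genes listed as monocyte markers, 9 rose and 1 fell (Ccr2). Of these 12, 8 were under 20 CPM in both 0 h libraries, and of the other 4, 2 rose and 1 fell. Ly6c2, a surface protein of monocytes and also of granulocyte precursors, rose from 10.98 to 464 CPM, 42.3-fold (31.6 to 57.9), and was at 32.3 CPM in CAF-1 OFF at 0 h. Csf1r, the M-CSF receptor, went from 0 UMIs at 0 h to 57.6 CPM at 48 h, at least 80.5-fold higher. Irf8, a transcription factor of the monocyte branch, rose from 10.7 to 54.8 CPM, 5.10-fold (3.72 to 7.15). F13a1 was at a log2 ratio of 0.49. Several other members are lysosomal or phagocyte genes that neutrophils also use, such as Ctss (2.52) and Cd68 (1.53).

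All 4 measured eosinophil genes rose, 2 of them from under 20 CPM in both 0 h libraries. Prg2, major basic protein, rose from 876 to 16629 CPM, 19.0-fold (18.4 to 19.6), and was among the most abundant mRNAs at 48 h. Prg3, its homologue, rose from 593 to 2522 CPM, 4.25-fold (4.07 to 4.44). The 0 h libraries of the arms differed in both genes, with Prg2 at 876 CPM here and 141 CPM in CAF-1 OFF and Prg3 at 593 and 74.7 CPM. On the log2 scale that difference was 2.55 for Prg2, under its rise of 4.23, and 2.83 for Prg3, larger than its rise of 2.07. Ear2, an eosinophil ribonuclease, went from 0 UMIs at 0 h to 72.3 CPM at 48 h, at least 101-fold higher. Siglecf, an eosinophil lectin, rose from 11.7 to 61.2 CPM, 5.23-fold (3.87 to 7.22). Below the minimum level, Epx, eosinophil peroxidase, went from 0 UMIs to 44.8 CPM, while the receptors Il5ra and Ccr3 were at 4.52 and 0.377 CPM. UMIs of the Ear genes are shared among near copies and their split is uncertain.

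Markers of the other blood lineages were few. Of 3 measured mast cell or basophil genes, Mcpt8 fell from 164 to 17.5 CPM, 9.39-fold (7.55 to 11.8), Cpa3 was at 491 and 384 CPM, and Hdc at 34.6 and 58.6 CPM. These 3 genes also differed by at least 2-fold between the 0 h libraries, standing at 40.1, 209 and 10.2 CPM in CAF-1 OFF. Of 3 megakaryocyte genes, Itga2b rose from 5.97 to 28.1 CPM, 4.70-fold (3.06 to 7.5002). Pf4 was at 10.02 and 2.07 CPM, 4.84-fold lower (2.45 to 10.4), and Gp9 at 18.6 and 43.5 CPM, 2.34-fold higher (1.80 to 3.06). Both were under the 2-fold limit only on the scale with the pseudocount, at log2 ratios of −0.73 and 0.90. Itga2b and Gp9 were under 20 CPM in both 0 h libraries. The single measured erythroid gene, the carbonic anhydrase Car2, fell from 83.1 to 12.6 CPM, 6.58-fold (5.06 to 8.68). The dendritic cell gene Cd74 was at 0 and 0.942 CPM, and none of 7 genes foreign to blood reached the minimum level.

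**Figure D2:**
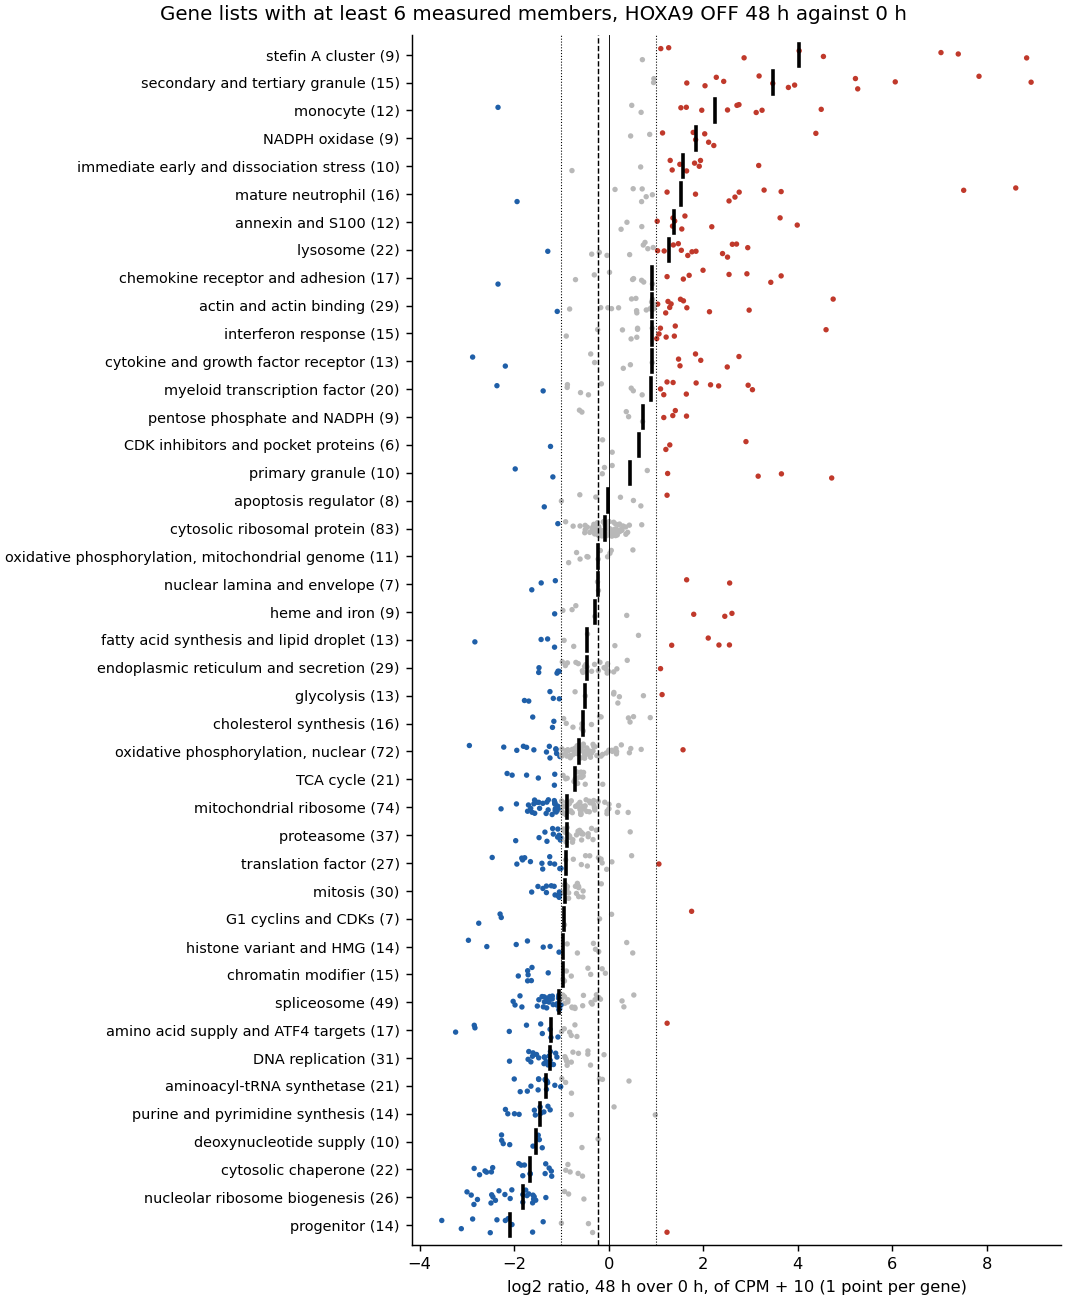
Each point is a measured gene of a list, placed by its log2 ratio of CPM + 10 at 48 h over 0 h, for the lists with at least 6 measured genes (number in parentheses). Short bars are list medians, the dashed line is the median of all 4789 genes (−0.23), and the dotted lines are the 2-fold limits. The stefin A and secondary granule lists lie at the top, and the nucleolar and progenitor lists at the bottom. All 9 stefin A genes and 11 of the 15 secondary granule genes were under 20 CPM in both 0 h libraries.

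Of 20 measured myeloid transcription factors 10 rose and 2 fell, with 6 of the 20 under 20 CPM in both 0 h libraries and 6 rises among the other 14. Cebpe, needed for secondary granules, rose from 82.3 to 704 CPM, 8.55-fold (7.66 to 9.58). Spi1, which encodes PU.1, rose from 154 to 814 CPM, 5.28-fold (4.86 to 5.74). Id2, an inhibitor of helix-loop-helix factors, rose from 18.6 to 226 CPM, 12.1-fold (9.64 to 15.5). Cebpb rose from 71.6 to 199.98 CPM, 2.79-fold (2.45 to 3.19). Cebpa and Gfi1, which act earlier in granulocyte commitment, changed less than 2-fold, at log2 ratios of −0.59 and −0.87. Myc and Myb were the 2 that fell.

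Genes of the cell cycle went down on the summed scale. Of 31 DNA replication genes 20 fell and 0 rose, against 19.6% and 13% of all genes. Their median was −1.23, and their summed level went from 3655 to 1500.1 CPM. Pold2, a polymerase delta subunit, fell from 74.7 to 9.79 CPM, 7.63-fold (5.67 to 10.4), and Mcm3, of the replicative helicase, fell from 120.04 to 30.3 CPM, 3.96-fold (3.31 to 4.76). Of 10 deoxynucleotide genes 8 fell, including Tyms, the thymidylate synthase, from 319 to 67.0 CPM, 4.75-fold (4.22 to 5.36). Purine and pyrimidine synthesis lost 11 of 14, with Adsl going from 56.8 to 4.71 CPM, 12.1-fold (7.98 to 19.0).

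Mitosis genes held up better, with 12 of 30 that fell, 0 that rose and a median of −0.92. Of all genes 19.6% fell and 13% rose. Ccnb1, mitotic cyclin B, fell from 179 to 51.2 CPM, 3.50-fold (3.04 to 4.03), and Cdk1 fell from 202 to 65.3 CPM, 3.097-fold (2.73 to 3.52). The proliferation marker Mki67 was at 58.9 and 34.5 CPM, and Nusap1, a spindle protein, at 40.3 and 35.2 CPM, both under the 2-fold limit. The D-type cyclins differed from each other. Ccnd2 fell from 198 to 20.9 CPM, 9.45-fold (7.75 to 11.6), Cdk4 fell from 597 to 114 CPM, 5.26-fold (4.81 to 5.76) and Cdk6 fell from 328 to 60.1 CPM, 5.47-fold (4.84 to 6.19), whereas Ccnd3 rose from 82.8 to 303 CPM, 3.66-fold (3.26 to 4.13). Among inhibitors of division, Btg1 rose from 42.0 to 379.6 CPM, 9.04-fold (7.74 to 10.6), and Cdkn2d, an inhibitor of CDK4 and CDK6, rose from 50.8 to 139 CPM, 2.74-fold (2.35 to 3.20). E2f4 fell at a log2 ratio of −1.23.

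Genes of ribosome production fell as a list. Of 26 nucleolar genes 23 fell and 0 rose, against 19.6% of all genes, with a median of −1.82. Nop56 and Nop58, core proteins of box C/D particles, fell from 273 to 29.2 CPM, 9.34-fold (7.89 to 11.1), and from 249 to 22.4 CPM, 11.1-fold (9.17 to 13.5). Ncl, nucleolin, fell from 1002 to 182 CPM, 5.49-fold (5.12 to 5.90). Npm1, nucleophosmin, fell from 2926 to 953 CPM, 3.07-fold (2.97 to 3.17) and remained abundant. Fbl, the fibrillarin methyltransferase, fell from 311 to 67.6 CPM, 4.60-fold (4.09 to 5.18). The 83 measured cytosolic ribosomal protein genes, by contrast, had a median of −0.07 with 1 that fell, and that median was above 0 with TMM factors, with median-of-ratios factors and with totals that leave out the most abundant genes.

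Other parts of protein production fell with the nucleolus. Of 21 aminoacyl-tRNA synthetases 15 fell (median −1.31), and of 27 translation factors 13 fell and 1 rose (median −0.91). Of all genes 19.6% fell and 13% rose. The amino acid list had 10 of 17 that fell and 1 that rose. Besides Phgdh, the next serine enzyme Psat1 fell from 457 to 55.7 CPM, 8.199-fold (7.25 to 9.30), and Shmt2, which passes serine carbon to folate, fell from 185 to 17.1 CPM, 10.8-fold (8.67 to 13.5). Slc7a11, the cystine transporter, rose from 42.7 to 114 CPM, 2.68-fold (2.26 to 3.18). Chaperones of cytosol and mitochondria fell at 17 of 22 genes with none that rose (median −1.66). Hspd1 and Hspe1, the mitochondrial chaperonin pair, fell from 729 to 92.8 CPM, 7.85-fold (7.14 to 8.65), and from 1201 to 192 CPM, 6.25-fold (5.84 to 6.69). Hsp90aa1 fell from 1588 to 231 CPM, 6.89-fold (6.48 to 7.32).

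Smaller medians were found for the spliceosome, where 27 of 49 genes fell and 0 rose (−1.05), the mitochondrial ribosome, 28 of 74 and 0 (−0.88), the proteasome, 11 of 37 and 0 (−0.88), and the nuclear-encoded respiratory chain, 13 of 72 with 1 that rose (−0.62). The share for the respiratory chain lies near the 19.6% of all genes. Genes of the mitochondrial genome had 0 of 11 past either limit and a median of −0.22, which was above 0 with TMM and median-of-ratios factors. In the TCA cycle 6 of 21 fell, against 19.6% of all genes (median −0.71), among them Idh2 at −2.15. In glycolysis 5 of 13 fell and 1 rose: Ldha, lactate dehydrogenase, fell from 962 to 291 CPM, 3.30-fold (3.11 to 3.51), and Gpi1, the isomerase at the branch to the pentose phosphate pathway, rose from 356 to 791 CPM, 2.22-fold (2.10 to 2.36).

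Lipid genes moved both ways. Of 13 measured, 4 rose and 4 fell. Of these 13, 3 were under 20 CPM in both 0 h libraries and all 3 rose, and of the other 10, 1 rose and 4 fell. Those that fell make or desaturate fatty acids, with Scd2 going from 261 to 28.1 CPM, 9.29-fold (7.82 to 11.1) and Fasn, fatty acid synthase, from 37.7 to 7.72 CPM, 4.88-fold (3.44 to 7.07). Genes of lipid storage were among those that rose. Plin2, the lipid droplet coat, went from 38.9 to 201 CPM, 5.16-fold (4.37 to 6.12). Dgat2, which makes triglyceride and was among the genes low at 0 h, went from 3.102 to 67.0 CPM, 21.6-fold (12.47 to 41.0). In heme and iron metabolism Ftl1, ferritin light chain, rose from 2678 to 14754 CPM, 5.51-fold (5.40 to 5.62), and Alas1, which starts heme synthesis, rose from 21.2 to 181 CPM, 8.502-fold (6.84 to 10.7). Tfrc, the transferrin receptor that imports iron, fell from 51.5 to 17.9 CPM, 2.88-fold (2.25 to 3.71).

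Lysosomal genes rose at 13 of 22, with 1 that fell and a median of 1.27. Grn, progranulin, rose from 35.3 to 339 CPM, 9.59-fold (8.10 to 11.4), Lamp1, a lysosomal membrane protein, rose from 92.1 to 656 CPM, 7.12-fold (6.41 to 7.93), and Ctsb, cathepsin B, rose from 53.2 to 326 CPM, 6.12-fold (5.32 to 7.07). The legumain gene Lgmn fell at a log2 ratio of −1.29. Of 29 actin genes 11 rose and 1 fell, against 13% and 19.6% of all genes. Tmsb4x, which holds monomeric actin, rose from 2223 to 17524 CPM, 7.88-fold (7.72 to 8.05), while its homologue Tmsb10 fell from 278 to 125 CPM, 2.21-fold (2.01 to 2.44). Annexin and S100 genes rose at 9 of 12, with Anxa1, the anti-inflammatory annexin, going from 82.3 to 1458 CPM, 17.7-fold (15.9 to 19.8) and S100a11 from 127 to 1683 CPM, 13.3-fold (12.1 to 14.5).

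Chromatin genes fell in part. Of 14 histone variant and HMG genes 7 fell and 0 rose, against 19.6% and 13% of all genes. The falls were led by Hmgb3 (from 212 to 18.5 CPM) and Hmga2 (from 62.0 to 2.07 CPM), both known from immature cells. Of 15 chromatin modifiers 7 fell, including the heterochromatin proteins Cbx1, Cbx3 and Cbx5 at log2 ratios of −1.63, −1.62 and −1.91 and the Polycomb methyltransferase Ezh2 at −1.28. Chaf1b, the CAF-1 subunit silenced in the second arm, went from 51.5 to 15.3 CPM here (log2 ratio −1.29). In the nuclear envelope Lmnb1, lamin B, fell from 105 to 33.0 CPM, 3.20-fold (2.68 to 3.84), and Syne1, which ties the nucleus to the cytoskeleton, rose from 1.43 to 57.4 CPM, 40.1-fold (18.2 to 110.2). The lamina list's median, −0.24, turned sign with TMM and median-of-ratios factors.

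Immediate early genes, which also respond to handling of cells, rose at 8 of 10 measured, with 7 of the 10 under 20 CPM in both 0 h libraries and 2 rises among the other 3. Fos rose from 7.16 to 145 CPM, 20.3-fold (14.1 to 30.2) and Junb from 17.4 to 95.5 CPM, 5.48-fold (4.28 to 7.10). Their part in the other results was not tested. Interferon-response genes rose at 7 of 15, all 7 from under 20 CPM in both 0 h libraries, with Ifitm6 going from 3 UMIs at 0 h to 249.9 CPM at 48 h, a ratio of 349 (119 to 1695). Of 5 measured p53 targets 2 rose, Gadd45a (from 23.4 to 64.0 CPM) and Pmaip1 (from 6.44 to 24.1 CPM), the latter from under 20 CPM in both 0 h libraries. Of 8 apoptosis regulators 1 rose (Casp1) and 1 fell (Bid), no more than the shares of all genes, 13% and 19.6%. The survival genes Mcl1 (from 28.6 to 52.0 CPM) and Bcl2 (from 98.1 to 44.1 CPM) stayed under the limit.

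To compare cells at equal depth, each was thinned to 2100 UMIs, which kept 471 cells at 0 h and left out 2, and kept 1279 at 48 h and left out 125. At that depth cells had a median of 1012 genes (quartiles 983 and 1041) at 0 h and 906 (852 and 950.5) at 48 h, against 2487 and 1250 without thinning. The progenitor markers Cd34, Flt3, Kit, Myb and Sox4 gave at least 1 UMI in 89.6% (86.5 to 92.2) of cells at 0 h and 27.3% (24.9 to 29.8) at 48 h. Cd34 alone went from 72.0% (67.7 to 76.0) to 12.04% (10.3 to 13.95), and Mif from 97.2% (95.3 to 98.5) to 19.8% (17.6 to 22.1). Unthinned, Cd34 was seen in 97.7% and 18.7% of cells.

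Gained genes spread over the 48 h library unevenly. No Chil3 UMI was seen in the 471 cells of 0 h (exact upper limit 0.780%), while it was seen in 71.9% (69.4 to 74.4) at 48 h. Stfa1 went from 0.212% (0.00538 to 1.18) to 74.6% (72.1 to 77.0), S100a8 from 0 to 56.8% (54.1 to 59.6), and Ngp from 0 to 33.9% (31.3 to 36.6). Spi1 went from 27.6% (23.6 to 31.9) to 82.6% (80.5 to 84.7) and Cebpe from 12.53% (9.67 to 15.9) to 58.9% (56.1 to 61.6). Ctsg went from 97.5% (95.6 to 98.7) to 39.2% (36.5 to 41.9), and Mpo from 81.5% (77.7 to 84.9) to 40.7% (38.0 to 43.5). Fewer cells gave an Mpo UMI, at a summed level that differed under 2-fold. A share of cells with a UMI includes free RNA taken up with the droplet, so a second measure used at least 10 UMIs of a marker list.

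By that measure, cells rich in the neutrophil list (S100a8, S100a9, Camp, Ngp, Ltf, Lcn2, Ly6g) numbered 0 of 471 at 0 h (exact upper limit 0.780%) and 443 of 1279 (34.6%, 32.03 to 37.3) at 48 h. At 48 h 139 cells held 10 to 19 such UMIs and 141 held 5 to 9, so the class is a range with no gap at its edge. Cells rich in the eosinophil list numbered 22 (4.67%, 2.95 to 6.99) and 256 (20.02%, 17.9 to 22.3). Here 5 cells at 0 h and 156 at 48 h held at least 100 such UMIs, and 40 cells at 48 h held 10 to 19, so the list had a high tail at both times. Cells rich in the primary granule list (Mpo, Elane, Prtn3, Ctsg, Ms4a3) numbered 277 (58.8%, 54.2 to 63.3) and 453 (35.4%, 32.8 to 38.1). With a limit of 20 UMIs the order turned, to 9.55% at 0 h and 17.3% at 48 h: the list was spread over nearly all cells at 0 h and held at both low and high levels at 48 h.

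**Figure D3:**
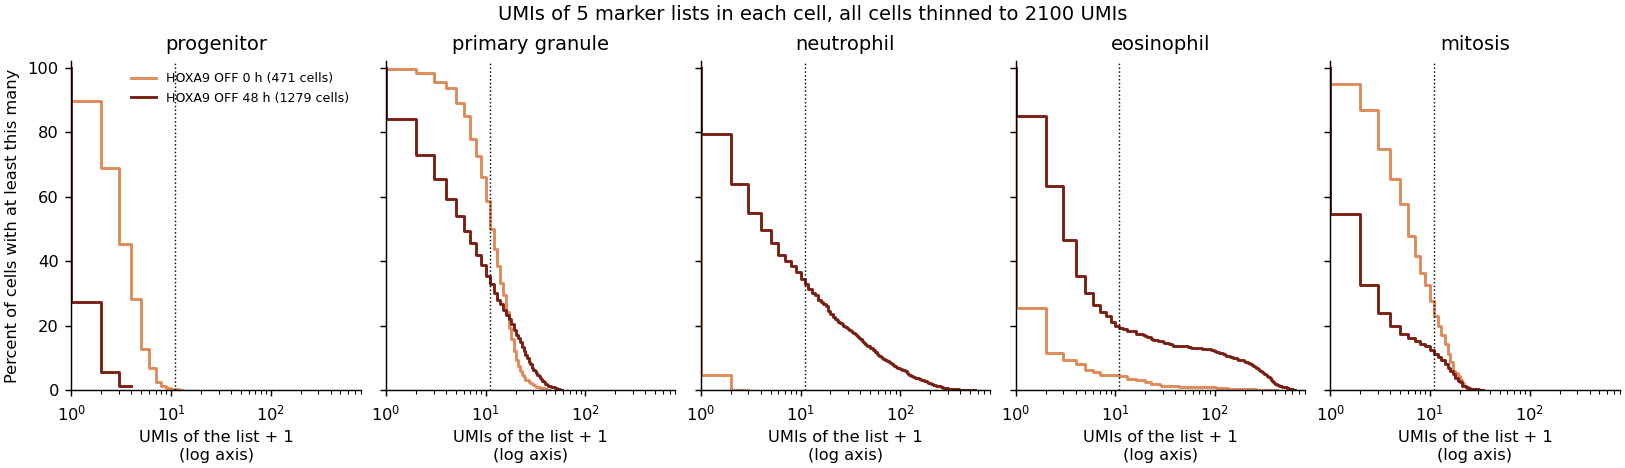
Percent of cells (y axis) with at least the number of UMIs of a marker list given on the x axis (UMIs + 1, log axis), for 471 cells at 0 h and 1279 at 48 h, each thinned to 2100 UMIs. The dotted line marks 10 UMIs. The neutrophil curve at 0 h stays near the corner, the eosinophil curves have a long flat tail, and the primary granule curves cross.

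The 3 lists were carried by partly separate cells at 48 h. Of 453 cells rich in primary granule UMIs, 33.3% were also rich in neutrophil UMIs, against 35.4% of the other cells, with overlapping intervals (29.0 to 37.9 and 32.1 to 38.7). In contrast, 5.08% were also rich in eosinophil UMIs, against 28.2% of the rest. Of 256 eosinophil-rich cells 8.98% were also primary granule-rich and 11.7% neutrophil-rich, against 42.0% and 40.4% of other cells. A cell thinned to 2100 UMIs has fewer left for other lists when 1 list takes many.

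Split by these lists, the 48 h cells comprised 284 rich in primary granule UMIs alone, 146 rich in both primary granule and neutrophil UMIs, 267 rich in neutrophil UMIs alone, 208 rich in eosinophil UMIs alone and 326 rich in none. Their median UMIs per cell before thinning were 4934, 3776, 3039, 3944.5 and 3365.5. The remaining 48 cells fell into rarer combinations. The CPM, log2 ratios and UMI counts below use all UMIs of the cells of a class. Shares of cells with a given number of UMIs were taken after thinning, at equal depth.

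Cell cycle genes differed between these classes. Set against all cells at 0 h, mitosis genes were at log2 ratios of −0.19 in primary granule-rich cells, −0.41 in those rich in both, −1.28 in neutrophil-rich cells, −2.09 in cells rich in none and −2.94 in eosinophil-rich cells. Cells with at least 10 mitosis UMIs made up 28.9% (23.7 to 34.5), 21.2% (14.9 to 28.8), 9.74% (6.46 to 13.9), 4.60% (2.60 to 7.48) and 1.92% (0.526 to 4.85) of these classes, and 27.6% of all cells at 0 h. DNA replication genes followed the same order, from −0.45 in the first class to −3.27 in the last. Deoxynucleotide genes differed from both, at −1.01 in primary granule-rich cells, −2.96 in eosinophil-rich cells and −3.38 in cells rich in none.

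Ribosome biogenesis did not follow that split. Nucleolar genes were at log2 ratios of −1.50, −2.19, −2.61, −2.12 and −1.91 in the same classes, past 2-fold in each. Primary granule-rich cells, whose mitosis genes stood near the 0 h level, were thus also low in nucleolar mRNA. Progenitor genes were down in all classes, from −1.67 to −2.05. NADPH oxidase genes were up in all, from 1.16 in eosinophil-rich to 1.90 in neutrophil-rich cells, and lysosomal genes from 1.16 to 1.72. Cytosolic ribosomal protein genes stayed between −0.19 and 0.16.

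**Figure D4:**
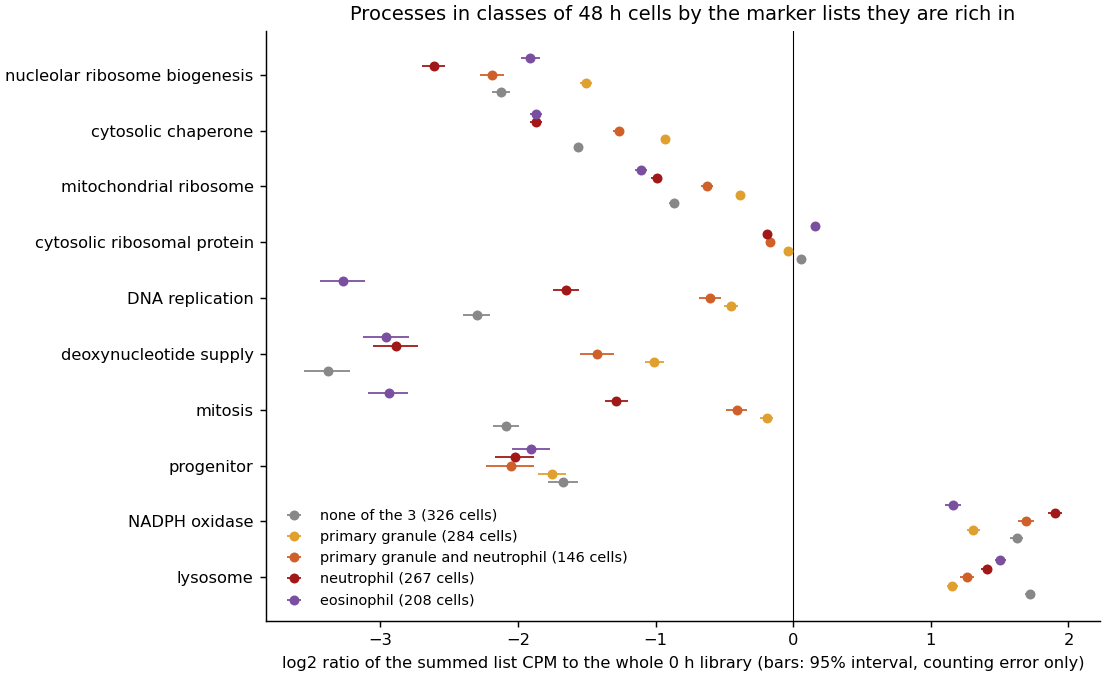
Summed CPM of each gene list in 5 classes of 48 h cells, as the log2 ratio to the whole 0 h library (x axis), with 95% intervals that cover counting error only. Mitosis and DNA replication spread from near 0 in primary granule-rich cells to about −3 in eosinophil-rich cells, while nucleolar genes are below −1 in all 5 classes.

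Transcription factors also divided by class. Gata1, required for eosinophils, was at 36.7 CPM (24.9 to 52.1) in eosinophil-rich cells and at 0 to 2.02 CPM in the others. Id2 was at 382 CPM (341 to 426) in neutrophil-rich and 69.8 CPM (53.1 to 90.03) in eosinophil-rich cells. Irf8 was at 99.6 CPM (84.2 to 117) in primary granule-rich cells and 85.2 CPM (69.2 to 104) in cells rich in none, but at 1.18 CPM (0.0300 to 6.59) in eosinophil-rich cells. Cebpe was lowest in the cells rich in none, at 296 CPM, and Spi1 was between 689 and 947 CPM throughout. Csf1r stood highest in the cells rich in none, at 127 CPM (107 to 149), and these 326 cells held 47.7% of its UMIs. Those cells also held Chil3 at 5085 CPM, a gene with 0 UMIs in the whole 0 h library.

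Free RNA was gauged with genes of 1 class in the cells of another. After thinning, S100a8 was seen in 92.1% of neutrophil-rich and 20.7% of eosinophil-rich cells. Prg2 was seen in all eosinophil-rich cells and in 57.1% of cells rich in none. S100a8 and Prg2 are on the lists that define these classes, so their high shares within their own class are built in. Those high shares do not gauge free RNA. The 2 eosinophil granule genes did not keep 1 ratio: there were 7.70 Prg2 UMIs per Prg3 UMI (7.54 to 7.86) in eosinophil-rich cells, 2.21 (1.88 to 2.62) in neutrophil-rich cells, 0.747 (0.678 to 0.822) in primary granule-rich cells and 1.48 (1.403 to 1.55) in the whole 0 h library. Low Prg2 counts outside the eosinophil-rich cells cannot be told from free RNA.

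The CAF-1 OFF arm, sampled at the same times, is set beside these values without a test. There 132 genes were at least 2-fold higher at 48 h than at 0 h (2.76%) and 2 were lower (0.0418%), both of which also fell in HOXA9 OFF. Of its 132, 69 also rose in HOXA9 OFF. That is 52.3% of the 132, against 13% of all genes, and 11.1% of the 621, against 2.76% of all genes. Of the 15 named rises, 7 were at least 2-fold higher in CAF-1 OFF and 7 more had the same sign. Chil3 was at 2.37 and 157 CPM there, Stfa1 at 0.237 and 31.3 CPM, and S100a8 at 0 and 14.3 CPM, all far under their HOXA9 OFF levels at 48 h. Of the 15 named falls none was 2-fold lower in CAF-1 OFF, with Cd34 at 756 and 738 CPM and Mif at 1693 and 1225 CPM.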

How the data were processed

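Mouse iGMPs were profiled by the authors with droplet single-cell RNA-seq, 1 library per arm and time. Per the submitters' processing notes, reads were processed with Cell Ranger 3.0.1 on mm10 (GRCm38) and analysed with Scanpy 1.4.6 and Seurat 3.0.1. The deposited files hold UMI counts per gene and barcode, not normalized. Here the counts of kept barcodes were summed per library and scaled to CPM, which makes every ratio relative to total mRNA. Multi-mapping reads of near-identical genes may be lost or split. With 1 library a side no test was run, and the exact intervals cover counting error only.

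The genes and 51 lists (1146 distinct genes) described were chosen with earlier results of these data known. Named genes were the 15 largest rises and 15 largest falls in log2((CPM + 10)/(CPM + 10)) with at least 50 CPM in 1 library, at least 2-fold change, under 2-fold difference between the 0 h libraries and no mitochondrial gene, plus up to 4 members of each list with the largest change and those that define it. Hoxa9, Lyz1, Lyz2, Chaf1b and members named to show a contrast were outside that rule and chosen after their values were seen. Scripts used Python 3.11.15, numpy 2.4.6, scipy 1.17.1, pandas 2.3.3, scanpy 1.11.5 (Scrublet, seed 0) and edgeR 4.0.16 (TMM factors only) in R 4.3.3, and were tested on simulated data. Some genes are not reported here. Promoters came from RefSeq, GRCm38.p6. The alternatives were other pseudocounts, scalings, minimum levels, mitochondrial limits, fold limits, UMI limits and thinning depths, and cells without doublet calls.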

Additional observations from a re-analysis of the deposited data

How the results depend on the processing

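No paired analysis was possible because each group was 1 library and no test was run; for the same reason no replicate could be left out. None of the 30 genes with the largest rises and falls turned direction under any of the 13 alternatives for level, scaling and cell filter. They were chosen for the size of their change in these same data, so this could hardly come out otherwise and supports nothing. The count of genes that rose, 621, was 981 at 1.5-fold, 204 at 4-fold and 290 with a pseudocount of 50 CPM, and that of genes that fell, 940, was 1678, 152 and 352. Lists with a median at least 2-fold higher, a count that the minimum level partly sets, numbered 8, but 5 with a pseudocount of 50 CPM and 13 with TMM factors, with median-of-ratios factors or with a total that leaves out the most abundant genes. Lists with a median at least 2-fold lower numbered 9, but 4 with a pseudocount of 50 CPM. These changes follow from how each alternative is built, since a larger pseudocount shrinks ratios of low genes.

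Depth set the values per cell. Genes per cell were 2487 and 1250 without thinning, and 1615 and 1482 in the 455 and 443 cells that reach the higher thinning depth. The share of primary granule-rich cells, 58.8% at 0 h and 35.4% at 48 h, was 97.3% and 44.5% without thinning, 91.9% and 74.0% at the higher depth, 89.2% and 54.0% with a limit of 5 UMIs, and 9.55% and 17.3% with a limit of 20. Neutrophil-rich cells at 48 h, 34.6%, were 44.4% without thinning, 45.7% with a limit of 5 and 23.8% with a limit of 20. Eosinophil-rich cells were 10.1% at 0 h and 28.4% at 48 h without thinning, 34.3% at 48 h at the higher depth, 30.3% at 48 h with a limit of 5, and 2.76% and 16.9% with a limit of 20. The spread between cultures cannot be measured here, and the 0 h library rests on 473 cells.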

Other observations

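Genes of the endoplasmic reticulum and secretion changed little as a group. Of 29 measured, 5 fell and 1 rose, against 19.6% and 13% of all genes. Their median log2 ratio was −0.46 against −0.23 for all genes. The gene that rose was Xbp1, a transcription factor of secretory capacity, from 37.9 to 92.6 CPM, 2.44-fold (2.04 to 2.94). The chaperone Hsp90b1 fell from 396 to 180.4 CPM, 2.19-fold (2.03 to 2.38), and Calr, calreticulin, fell from 1368 to 646 CPM, 2.12-fold (2.03 to 2.21). Cholesterol synthesis had 3 of 16 genes that fell and 0 that rose, a share near the 19.6% of all genes that fell, with Sqle, squalene epoxidase, going from 50.1 to 16.4 CPM, 3.06-fold (2.37 to 3.97).

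A few genes sat apart from their lists. Cox7a2l, a respiratory supercomplex factor, was the 1 of 72 nuclear respiratory genes that rose, from 452 to 1366 CPM, 3.02-fold (2.87 to 3.18), while the muscle-type subunit Cox6a2 fell from 99.0 to 4.14 CPM, 23.9-fold (15.6 to 38.6). Eif4a2, a helicase of translation initiation, was the 1 of 27 translation factors that rose, from 101 to 222 CPM, 2.20-fold (1.97 to 2.46). These genes were named after their values were seen.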
